A study of Mus musculus with 2 samples.

Results

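The let-7 microRNA genes that lie outside the Mir99/100-Mir125 loci were examined in mouse embryonic forebrain. They are 9 of the 1973 microRNA genes counted, and they were taken by name, not by measured values: Mirlet7g, Mirlet7i, Mirlet7d, Mirlet7b, Mirlet7c-2, Mirlet7a-1, Mirlet7f-2, Mir98 and Gm24111. Gm24111 stands for Mirlet7f-1, whose hairpin it overlaps on the other strand, and its opposite-strand counts were used. Forebrain had been taken at embryonic day 13.5 from B6NCrl mice labelled healthy, with tissue of both sexes pooled and no treatment or genetic change in the labels. RNA shorter than 30 nucleotides was sequenced in 2 libraries, biological replicates 1 and 2 of 1 group, which have their own biosample identifiers and a common donor identifier. With 1 group there was no comparison between conditions, and every test below sets replicate 1 against replicate 2. Nothing in the labels says that the pools held different litters, so the spread between the libraries may be technical.

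MicroRNAs are cut from hairpin precursors, and the let-7 family, first described in the nematode Caenorhabditis elegans, is the classic timer of development. Its members share a seed, the short stretch near the 5′ end that pairs with target messages, among them those of Lin28a, Hmga2 and cell-cycle genes. In the developing brain mature let-7 rises as progenitors leave the cell cycle, and LIN28 proteins hold it back by binding the loop of the precursor.

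The mature 5p sequences are shown first because they set which genes a short read can be assigned to. All 9 members matched an entry of the RefSeq table (build GRCm38.p6). Each sequence is written 5′ to 3′ with the seed, bases 2 to 8, in capitals.
Mirlet7g, chr9:106178846-106178867, plus strand: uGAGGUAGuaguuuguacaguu
Mirlet7i, chr10:122985698-122985719, minus strand: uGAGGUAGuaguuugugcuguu
Mirlet7d, chr13:48536078-48536099, minus strand: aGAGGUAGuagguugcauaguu
Mir98, chrX:151913229-151913250, plus strand: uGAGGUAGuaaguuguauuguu
Mirlet7b, chr15:85707325-85707346, plus strand: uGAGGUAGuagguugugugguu
Mirlet7f-2, chrX:151912353-151912374, plus strand: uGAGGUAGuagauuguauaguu
Mirlet7f-1, chr13:48537889-48537910, minus strand: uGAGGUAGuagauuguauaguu
Mirlet7c-2, chr15:85706616-85706637, plus strand: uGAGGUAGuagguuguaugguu
Mirlet7a-1, chr13:48538239-48538260, minus strand: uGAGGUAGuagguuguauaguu

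All 9 carry the seed GAGGUAG, so they form 1 seed group and differ only outside it. Positions are counted from 1 at the 5′ end, and let-7a-5p, the sequence of Mirlet7a-1, is the reference. Mirlet7g differs from it by G12U and U18C. Mirlet7i differs by G12U, A17G, U18C and A19U. Mirlet7d differs by U1A and U16C, Mir98 by G11A and A19U, and Mirlet7b by A17G and A19G. Mirlet7c-2 differs only by A19G, and Mirlet7f-1 and Mirlet7f-2 only by G12A.

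The members fell into 2 classes by this sequence. The 5p of 5 members, Mirlet7g, Mirlet7i, Mirlet7d, Mir98 and Mirlet7b, was found in no other annotated hairpin. The 5p of the other 4 was present in a second hairpin: that of Mirlet7a-1 in Mirlet7a-2, that of Mirlet7c-2 in Mirlet7c-1, and that of Mirlet7f-2 in Mirlet7f-1. Mirlet7a-1 and Mirlet7c-2 also share their whole 3p arm with each other, the longest exact stretch between them being 26 nucleotides.
Mirlet7a-1 and Mirlet7c-2, 3p: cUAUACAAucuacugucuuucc
Mirlet7f-2, 3p: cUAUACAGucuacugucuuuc
Mirlet7f-1, 3p: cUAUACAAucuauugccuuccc

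The bases that follow the shared 5p in the hairpin decide where a longer read could be placed. In the lines below they are in capitals after the 5p in lower case.
Mirlet7f-2: ugagguaguagauuguauaguuUUAGGG
Mirlet7f-1: ugagguaguagauuguauaguuGUGGGG
Mirlet7a-1: ugagguaguagguuguauaguuUUAGGG
Mirlet7a-2: ugagguaguagguuguauaguuUAGAGU
Mirlet7c-2: ugagguaguagguuguaugguuUUGGGC
Mirlet7c-1: ugagguaguagguuguaugguuUAGAGU
Read from the first base of the 5p, the Mirlet7f hairpins are identical over 22 nucleotides, the length of the mature form. The hairpins of Mirlet7a-1 and Mirlet7a-2, and those of Mirlet7c-2 and Mirlet7c-1, are identical over 23.

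The tables hold whole counts of reads per gene. Replicate 1 had 4117752 counts on microRNA genes (38.7% of 10631040 reads) and replicate 2 had 3908953 (37.4% of 10452225). Levels are given as CPM, counts per 1000000 gene counts. A single count was worth 0.243 CPM in replicate 1, against 0.256 in replicate 2. A read covers a whole mature microRNA, so CPM was not divided by gene length, and how evenly different microRNAs were captured was not measured. Reads mapping to several places stand in a row of their own, 4315754 in replicate 1 and 4589546 in replicate 2. They number 10.3 and 10.01 times the counts of all 9 members, and what share of them is let-7 was not tested. The tissue label was checked against microRNA markers. Of 9 measured neural markers, 7 were detected, among them Mir9-2 and Mir124a-2 with at most 20 counts in either library. The neural list had a summed level of 25165 CPM in replicate 1 and 21543 CPM in replicate 2, and the liver marker Mir122 had 59.3 and 52.7 CPM. The vascular markers Mir126a and Mir143 summed to 19123 and 22798 CPM, above the neural sum in replicate 2. Most of the neural sum came from Mir92b, at 13897 CPM in replicate 1 and 12964 in replicate 2, and Mir137, at 8954 and 6750 CPM. The 3 Mir124a genes, hairpins of the neuronal miR-124, lay between 0.729 and 4.86 CPM. Low counts there, or on Mir9-2, do not show a low level of the mature form if another hairpin holds the same sequence. Reads mapping to several places are outside these counts, and sharing was not read out for each of these genes. In whole tissue, fewer cells of a type and less RNA per cell cannot be told apart. The muscle list summed to 48.3 and 37.1 CPM, from Mir208b at 37.9 and 33.8 CPM and Mir206 at 10.4 and 3.33 CPM. Mir1a-1 and Mir133a-1 were at 0, which does not show absence if another hairpin holds the same mature sequence. Such sharing was not looked up for them. The 3 blood markers summed to 239 and 179 CPM.

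All 9 members were detected, that is, had at least 10 counts in each library, against 19.2% of all genes in the table. Their summed share of gene counts was 11.0% ± 1.06 (SD, n = 2). Replicate 1 gave 10.2%, with a Wilson 95% interval of 10.2 to 10.3, and replicate 2 gave 11.7%, with an interval of 11.7 to 11.8. PCR copies of 1 molecule cannot be recognised without molecular identifiers, so every interval here covers counting error alone. The median member stood at 3487 CPM, against 137 CPM for the median detected gene. The sum was uneven, and the single genes Mirlet7g and Mirlet7i held 81.9% ± 0.0389 of it.

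Mirlet7g is a single hairpin in an intron of Wdr82, which encodes a subunit of histone methyltransferase complexes (ENSMUSG00000065440.1, chromosome 9, 106178840 to 106178927, plus strand, mm10 as for all positions here). It had 227477 counts in replicate 1 and 238158 in replicate 2, or 55243 and 60926 CPM, and was second among all genes in each library. Mirlet7i lies in an exon of D630033A02Rik, a transcribed processed pseudogene (ENSMUSG00000065406.2, chromosome 10, 122985640 to 122985724, minus strand). It had 117336 and 137069 counts, or 28495 and 35065 CPM, and ranked 7 in replicate 1 and 5 in replicate 2. Mirlet7g was above Mirlet7i in each library. The ratio of their counts was 1.94 in replicate 1 (exact 95% interval 1.93 to 1.95) and 1.74 in replicate 2 (1.73 to 1.75), so the intervals of the 2 libraries did not overlap. The 5p sequences of this pair are the nearest to each other that Mirlet7i has in the family, with 2 differences.

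The genes nearest to these levels were found by distance in log2(CPM + 1) over the 2 libraries, which says nothing of function. For Mirlet7g they were Mir335, at 51906 CPM in replicate 1 and 52685 in replicate 2, and Mir17, at 48546 and 49430 CPM. For Mirlet7i they were Mir130a, at 33037 and 34794 CPM, and Mir99b, at 31157 and 27417 CPM. Mirlet7g was above its neighbours in each library. The range of Mirlet7i overlapped those of Mir130a and Mir99b.

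The chromosome 13 locus holds Mirlet7a-1, Mirlet7f-1 and Mirlet7d, in this order of transcription, in an exon of the long non-coding RNA gene 6720427I07Rik on the minus strand. The hairpins span 2261 nucleotides, with a gap of 261 between the first pair and 1714 before Mirlet7d. Mirlet7d (ENSMUSG00000065453.1, 48536012 to 48536114) had 33012 counts in replicate 1 and 35297 in replicate 2, or 8017 and 9030 CPM. Mirlet7a-1 (ENSMUSG00000065421.2, 48538179 to 48538272) had 681 and 671 counts, or 165 and 172 CPM. Mirlet7f-1 (48537829 to 48537917), read opposite Gm24111 (ENSMUSG00000093232.1), had 294 and 337 counts, or 71.4 and 86.2 CPM, while Gm24111 itself had 3 and 5. Levels within this locus were far apart in each library. Mirlet7d over Mirlet7a-1 was 48.5 in replicate 1 (exact 95% interval 44.9 to 52.4) and 52.6 in replicate 2 (48.7 to 56.9). Mirlet7d over Mirlet7f-1 was 112 (100.1 to 126) and 105 (94.1 to 117). Mirlet7a-1 over Mirlet7f-1 was 2.32 (2.02 to 2.66) and 1.99 (1.74 to 2.28). Mirlet7d is the one hairpin of the locus with an unshared 5p.

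The chromosome 15 locus holds Mirlet7c-2 (ENSMUSG00000065608.1, 85706603 to 85706697) and, 621 nucleotides downstream, Mirlet7b (ENSMUSG00000065564.1, 85707319 to 85707403), in an exon of the non-coding gene Lncppara on the plus strand. Mirlet7b had 13513 counts in replicate 1 and 14433 in replicate 2, or 3282 and 3692 CPM. Mirlet7c-2 had 952 and 905 counts, or 231 and 232 CPM, the smallest SD of any member. That SD rests on 2 values scaled by library totals and does not show a low spread. With the TMM scaling used below, replicate 1 over replicate 2 was 0.926-fold for this gene. Mirlet7b over Mirlet7c-2 was 14.2 in replicate 1 (exact 95% interval 13.3 to 15.2) and 15.9 in replicate 2 (14.9 to 17.1). The 5p of Mirlet7b is unshared but differs from let-7c-5p at 1 position, the closest approach among the 5 unshared members.

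The chromosome X locus lies in an intron of Huwe1, which encodes a ubiquitin ligase, on the plus strand. It holds Mirlet7f-2 (ENSMUSG00000065602.1, 151912346 to 151912428) and, 785 nucleotides downstream, Mir98 (ENSMUSG00000065536.2, 151913214 to 151913321), a let-7 family member by its seed. Mir98 had 21805 counts in replicate 1 and 24983 in replicate 2, or 5295 and 6391 CPM. Mirlet7f-2 had 5796 and 6443 counts, or 1408 and 1648 CPM. Mir98 over Mirlet7f-2 was 3.76 in replicate 1 (exact 95% interval 3.65 to 3.87) and 3.88 in replicate 2 (3.77 to 3.99). In all 3 loci the last hairpin in the direction of transcription, which was also the one with an unshared 5p, had the most reads. Order and sharing therefore cannot be told apart here.

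**Figure D1:**
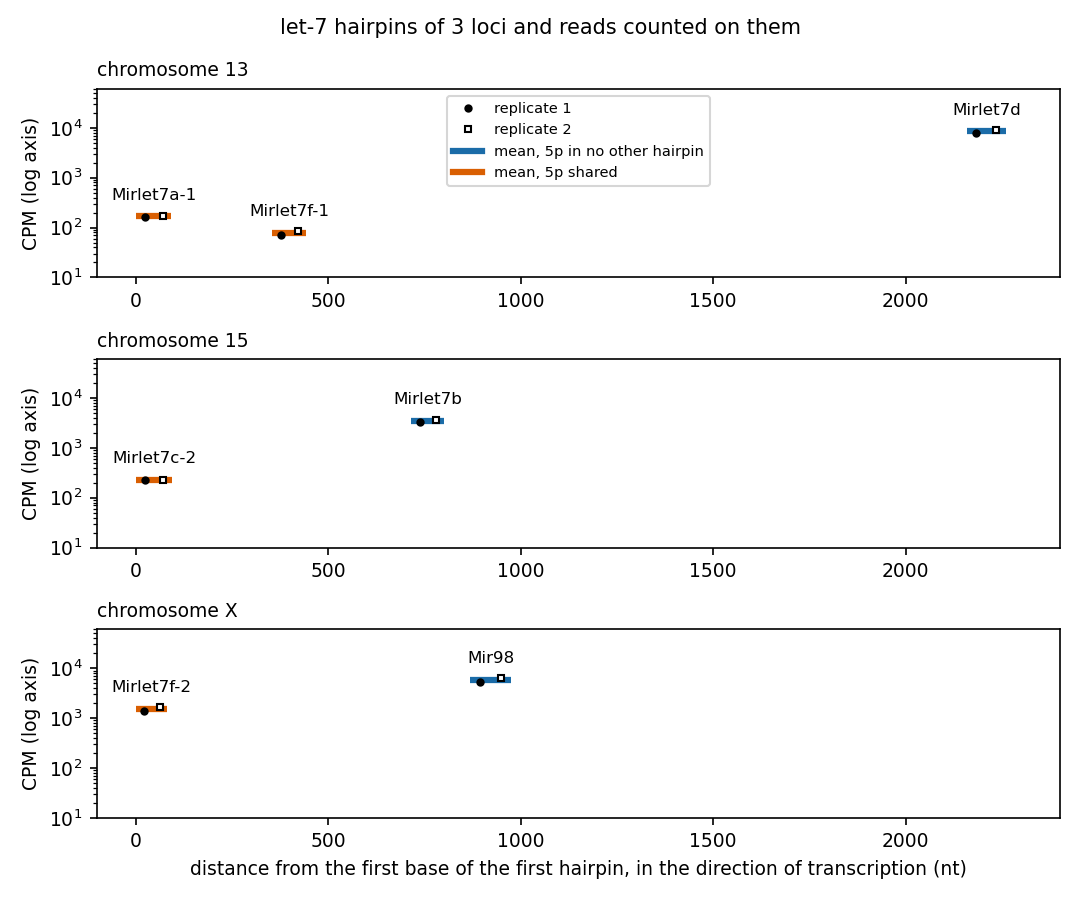
Reads counted on the hairpins of the chromosome 13, 15 and X loci, with distance along the locus in nucleotides on the x axis and CPM on a log y axis. Each coloured line spans a hairpin at its mean CPM, circles are replicate 1 and squares replicate 2, and the hairpins with an unshared 5p (Mirlet7d, Mirlet7b, Mir98) stand above those with a shared one.

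Sorted by mean CPM the order was Mirlet7g (58085 ± 4019), Mirlet7i (31780 ± 4646), Mirlet7d (8523 ± 716), Mir98 (5843 ± 775), Mirlet7b (3487 ± 290), Mirlet7f-2 (1528 ± 170), Mirlet7c-2 (231 ± 0.230), Mirlet7a-1 (169 ± 4.44) and Gm24111 (78.8 ± 10.5). The order was the same in each library, and the ranges of neighbours did not overlap in any of the 8 steps. The closest step was Mirlet7c-2 over Mirlet7a-1, a ratio of 1.37. The ranks of the means among all genes ran from 2 for Mirlet7g to 222 for Gm24111.

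The levels followed the sequence classes. The 5 members with an unshared 5p held 98.2% of the members' counts in replicate 1 and 98.2% in replicate 2, and ran from 3487 to 58085 CPM in the mean. The 4 with a shared 5p held 1.84% and 1.82% and ran from 78.8 to 1528 CPM, so the classes did not overlap. Reads of a shared sequence that fit both hairpins stand outside every gene's count. The values of these 4 genes are therefore uncertain, and the classes compare reads counted and not amounts of RNA. For all detected genes with a RefSeq sequence the split was made on either arm and not on the 5p alone. There, 44 genes with a shared mature sequence had a median of 175 CPM, against 146 CPM for 297 genes without one.

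Members of an identical 5p were not at equal levels. Mirlet7f-2 had 19.7 times the counts of Mirlet7f-1 in replicate 1 (exact 95% interval 17.5 to 22.2) and 19.1 times in replicate 2 (17.1 to 21.4), although their 5p is the same. The genes differ in the base after the 5p and in the 3p arm, as printed above, and the part of either in this ratio was not tested. By contrast Mirlet7a-1 and its partner Mirlet7a-2 were close, with 681 against 669 counts in replicate 1 and 671 against 724 in replicate 2. Mirlet7c-2 had fewer counts than Mirlet7c-1, which had 1429 in replicate 1 and 1353 in replicate 2. The ratio of Mirlet7c-1 over Mirlet7c-2 was 1.501 in replicate 1 (exact 95% interval 1.38 to 1.63) and 1.495 in replicate 2 (1.37 to 1.63).

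The 3 let-7 genes inside the Mir99/100-Mir125 loci held little beside the 9 members. They summed to 6435 counts in replicate 1 and 6829 in replicate 2, against 420866 and 458296 for the members. Mirlet7e, read opposite Gm25301, has an unshared 5p, and it led the 3 with 4337 and 4752 counts, or 1053 and 1216 CPM. This is below Mirlet7f-2, so over all 12 let-7 genes the classes of shared and unshared 5p did overlap.

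**Figure D2:**
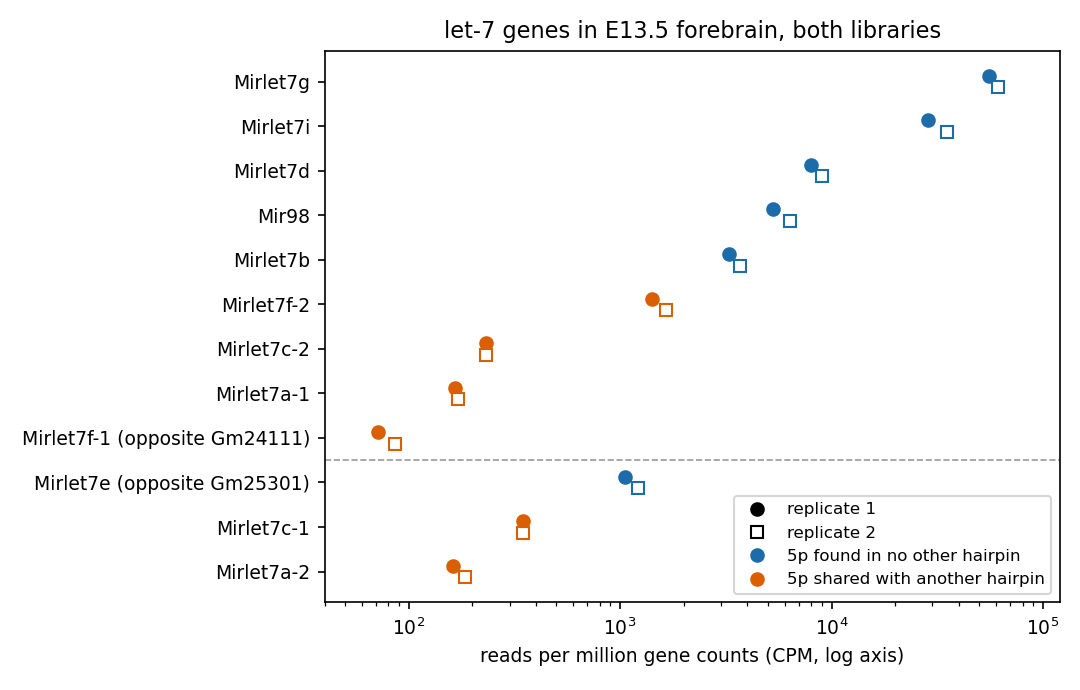
CPM (log x axis) of the 9 members, above the dashed line, and of the 3 let-7 genes of the Mir99/100-Mir125 loci, below it, with circles for replicate 1 and squares for replicate 2. Colour marks whether the 5p is found in another hairpin, and among the members the lowest point with an unshared 5p is Mirlet7b at 3282 CPM and the highest with a shared one is Mirlet7f-2 at 1648 CPM.

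**Figure D3:**
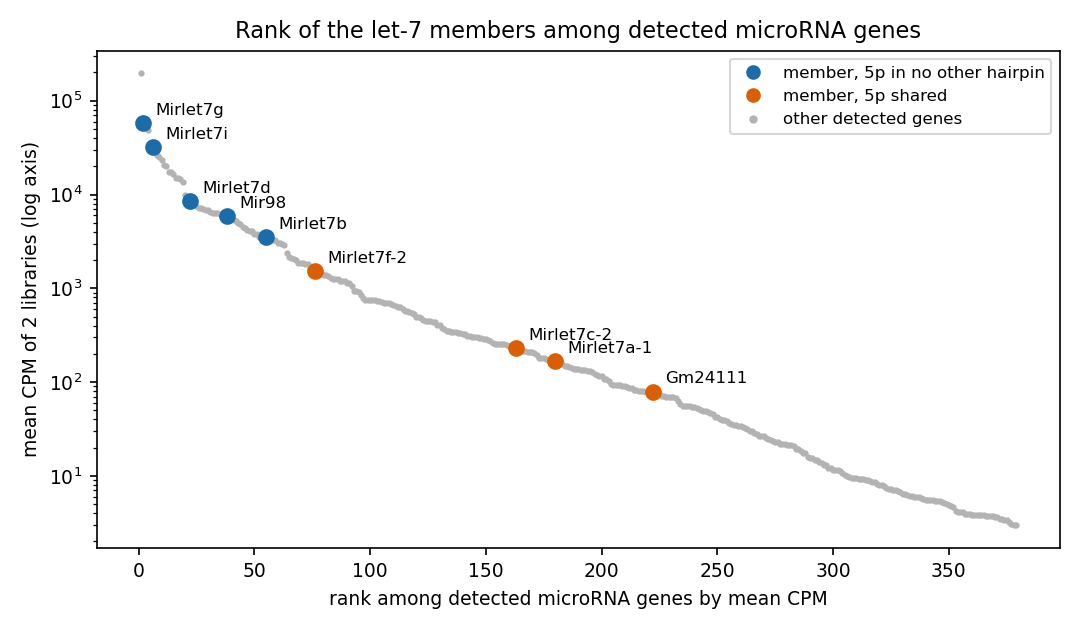
Mean CPM of the 2 libraries (log y axis) against rank for the 379 detected microRNA genes, with the 9 members coloured by 5p class. Mirlet7g and Mirlet7i stand at ranks 2 and 6, and Mirlet7c-2, Mirlet7a-1 and Gm24111 stand at ranks 163, 180 and 222.

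All 9 members had a ratio below 0, that is, a lower level in replicate 1 than in replicate 2, under each of the 3 scalings tried. With TMM scaling 52.0% of all tested genes also had a ratio below 0. Under the other scalings this share was not computed. Each ratio is the log2 of the scaled level in replicate 1 over that in replicate 2, with TMM factors, and each gene was tested with a two-sided exact binomial test, Benjamini-Hochberg adjusted over the 477 genes tested. The test covers counting error only, and it compares the libraries, not conditions. At an adjusted p under 0.05, 7 of the 9 passed, all 7 lower in replicate 1. Of all tested genes 39.2% passed in either direction and 18.4% were lower in replicate 1. The split of calls depended on the scaling: 88 of 187 called genes were lower in replicate 1 with TMM, 69 of 187 with DESeq2 size factors and 56 of 197 with library totals. Among genes with a mean of at least 1000 CPM, 51.1% were called lower in replicate 1 with TMM, and 6 members belong to that class, all of them called lower. The median log2 ratio of the members was -0.28, against -0.02 for all tested genes with TMM, and -0.17 against 0.09 with library totals.

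Mirlet7i had the lowest ratio, -0.41 (exact 95% interval -0.42 to -0.40), or 0.754-fold. Mir98 stood at -0.38 (-0.41 to -0.35, exact binomial adjusted p = 9.19e-177), and Gm24111, with far fewer reads, at -0.38 (-0.61 to -0.15, exact binomial adjusted p = 0.00362). Mirlet7f-2, the neighbour of Mir98 in Huwe1, stood at -0.34 (-0.39 to -0.29). Mirlet7d and Mirlet7b both stood at -0.28, and Mirlet7g at -0.25 (-0.26 to -0.24). The members that did not pass were Mirlet7a-1, at -0.16 (-0.32 to -0.01, exact binomial adjusted p = 0.0939), and Mirlet7c-2, at -0.11 (-0.24 to 0.02, exact binomial adjusted p = 0.197).

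A test that allows for spread beyond counting called none of the members. The biological coefficient of variation estimated over the detected genes, with TMM factors and apart from counting error, was 14.3%. The members' own coefficients, taken from CPM on library totals with counting error included, ran from 0.0995% for Mirlet7c-2 to 14.6% for Mirlet7i. These are unlike measures and cannot be set against each other. With TMM, replicate 1 over replicate 2 was 0.926-fold for Mirlet7c-2 and 0.754-fold for Mirlet7i. With the dispersion that gave the 14.3%, an edgeR exact test called 0 of the 9 members, none of which reached an unadjusted p under 0.05. It called 1 of the 477 genes, with 31 at an unadjusted p under 0.05. Because that dispersion comes from the very libraries compared, the test can make few calls.

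Marker levels also differed between the libraries. The vascular markers Mir126a and Mir143 summed to 19123 CPM in replicate 1 and 22798 in replicate 2, the direction of the let-7 genes. The sum of the neural list ran the other way, at 25165 and 21543 CPM. Every measured gene of that list with more than 20 counts had a lower CPM in replicate 2, by unlike amounts. Mir137 had 8954 and 6750 CPM, Mir128-1 869 and 623, and Mir128-2 679 and 472. Mir92b had 13897 and 12964 CPM, and Mir9-3 754 and 722. Mir124a-2, with 20 and 19 counts, and Mir124a-3, with 3 and 3, were not lower in replicate 2. Counts this low cannot show a direction. These CPM are scaled by library totals, and TMM lowers each log2 ratio of replicate 1 over replicate 2 by 0.11. Small differences such as those of Mir92b and Mir9-3 therefore depend on the scaling. The blood markers were mixed. Mir451a had 123 CPM in replicate 1 and 34.3 in replicate 2, Mir144 had 26.5 and 42.0 CPM, and Mir223 had 89.4 and 102 CPM. The part of any of these in the let-7 ratios was not tested.

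**Figure D4:**
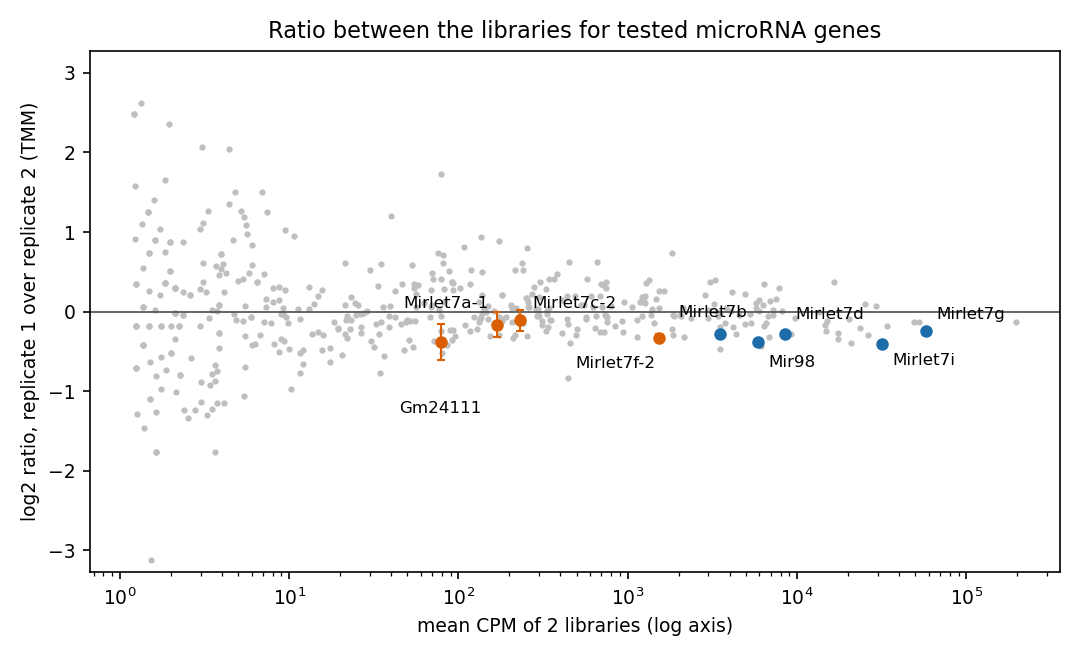
Log2 ratio of replicate 1 over replicate 2 after TMM scaling against mean CPM (log x axis) for the 477 tested genes, with the 9 members in colour with exact 95% intervals of counting error and the other 468 genes in grey. All 9 members lie below 0, between -0.41 and -0.11. Of all tested genes, 52.0% lie below 0.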

How the data were processed

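Small RNA from E13.5 mouse forebrain was measured in 2 libraries of 1 group, with replicate numbers taken from the labels. The authors deposited 1 table of whole-number counts per library, not normalized and not pooled, on build mm10 with the GENCODE M4 annotation per the file headers of the accompanying read-me texts. The aligner and counter were not given in the sources used here. Own-strand counts were used, and opposite-strand counts for Gm24111 and Gm25301. Summary rows (unmapped, multi-mapped, unassigned, ambiguous) stayed out of library sizes, which left 38.7% of reads in replicate 1 and 37.4% in replicate 2.

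Names, positions and host genes came from GENCODE M21 on the same build, which matched 1894 of 1973 identifiers, so hairpin borders may differ from those used for counting. Sequences are from RefSeq, where a sequence was called shared when it occurred exactly in another annotated hairpin; the genome was not searched. CPM, log2 ratios (prior count 0.5), TMM factors and exact tests were computed here from the counts with R 4.3.3, edgeR 4.0.16 and DESeq2 1.42.0. The exact binomial test ran over the 477 genes whose summed count reached 10 and was tested on simulated data. The simulated counts held counting error only, so they do not show how the test fares with the wider spread between these libraries. edgeR's quasi-likelihood test needs residual degrees of freedom, which 1 library against 1 lacks.

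Members and lists were chosen with earlier results of these data known. Named genes were the 9 members, the other let-7 genes, the 2 genes nearest in level to each leading member, and the tissue markers. Alternatives were other scalings, count minimums, denominators, strands, per-nucleotide counts and each library alone.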

Additional observations from a re-analysis of the deposited data

Results flagged for a closer look

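Mirlet7b had reads on the strand opposite to the gene, in a column not used for it, above the 3 counts that a count of 0 allows. The mean was 10 reads, from 14 in replicate 1 and 6 in replicate 2, which made up 0.103% and 0.0416% of its reads on either strand. The other 7 members counted on their own strand had 0 opposite-strand reads in each library.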

How the results depend on the processing

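Of 54 alternative values for 15 results, 49 kept their direction and their side of the threshold, or moved by less than the SD of the libraries. Part of the 49 was fixed in advance. Shares and ratios from a single library always lie within that SD, and either-strand ratios could not change for members without opposite-strand reads. With all reads as the denominator, multi-mapped and unmapped ones included, the members' share was 4.17%, against 11.0% of gene counts. Per nucleotide of gene length the ratio of Mirlet7d over Mirlet7a-1 was 46.1, that of Mirlet7b over Mirlet7c-2 16.8 and that of Mir98 over Mirlet7f-2 2.94. The edgeR exact test with estimated dispersion called 0 members, with a lowest unadjusted p of 0.164. The binomial test called 7 members under each scaling and count minimum tried. Genes called numbered 187 of 477 at the minimum used, 178 of 721 with at least 1 count and 173 of 295 with at least 50 counts in each library. All 9 members pass that last minimum, at which 28.8% of tested genes were called lower in replicate 1, against 18.4%. With library totals ratios moved by 0.11 in log2, and 9 of 9 members stayed below 0. The members' median was -0.17, against 0.09 for all tested genes. Mirlet7c-2 stood at -0.002, and Gm24111 had an exact binomial adjusted p of 0.0459. With that scaling 11.7% of tested genes were called lower in replicate 1. Each library alone gave shares of 11.7% and 10.2%, and with 2 libraries a single one always lies within the SD of the mean; the test between libraries cannot be run on 1 of them. No paired analysis was possible because there is 1 group. Depth limits Gm24111 most, whose ratio has the widest interval.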

Other observations

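RefSeq lists 13 mature sequences with the seed GAGGUAG among 1738, and 2 of their genes lie outside the let-7 genes described above. These genes were looked up after the members had been examined. Mir1961, on chromosome 5 (mature form 92788465 to 92788481, minus strand), had 0 counts in each library, which allows up to 0.729 CPM in replicate 1 and 0.767 CPM in replicate 2. Mir7k, the gene of mmu-let-7k, on the same chromosome (mature form 147283257 to 147283275, minus strand), had 1 count in replicate 1 and 0 in replicate 2. Neither was detectable at this depth. Their mature forms are shorter than those of the members.
Mir1961: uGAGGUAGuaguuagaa
Mir7k: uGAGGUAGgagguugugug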
